A study of Mus musculus with 10 samples.

Results

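The 10 genes described here are some of the ligands, antagonists, inhibitory Smads and Id genes of BMP and activin signalling: Bmp2, Bmp4, Inhba, Fst, Grem1, Id1, Id2, Id3, Smad6 and Smad7. They were chosen by name, as all probe sets whose symbol in the array's probe-to-gene annotation is one of these. The rule itself uses no measured value. The 10 genes are 10 of the 12393 genes with a probe set of their own, and they carry 12 of the 20380 probe sets with a single gene symbol. Id2 has 3 probe sets and each of the others has 1. On GRCm38.p6 the genes lie at chr2:133552159-133562896 (Bmp2), chr14:46383525-46390669 (Bmp4), chr13:16004256-16031609 (Inhba), chr13:114452262-114458989 (Fst), chr2:113748675-113758648 (Grem1), chr2:152736251-152737410 (Id1), chr12:25093799-25096092 (Id2), chr4:136143822-136145392 (Id3), chr9:63953076-64022085 (Smad6) and chr18:75367365-75395935 (Smad7). Of the 10 genes, 9 were tested among 8398 genes bright enough to pass a filter on dim probe sets, and Bmp2 did not pass it.

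The arrays came from primary mouse embryonic fibroblasts, connective tissue cells grown from E13.5 embryos, on a mixed C57BL/6 and 129 background. There were 3 arrays of wild type (WT) cells, 3 of Snf5-/- cells, which lack a core subunit of the SWI/SNF chromatin remodelling complex, and 4 of Brg1-/- cells, which lack its ATPase subunit. According to the labels, all 3 groups, wild type included, were grown in medium with 10% fetal bovine serum, were infected with a retrovirus carrying Cre recombinase, and underwent puromycin selection. The labels do not say whether replicates came from separate embryos or cultures, so each p-value reflects array-to-array spread, which may be technical. They also do not say what share of the cells had recombined. The series asks how the loss of a SWI/SNF subunit changes gene expression.

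BMPs and activins are secreted ligands of the TGF-beta family that bind pairs of serine/threonine kinase receptors at the cell surface. BMP receptors phosphorylate Smad1, Smad5 and Smad9, activin receptors phosphorylate Smad2 and Smad3, and the activated Smads enter the nucleus with Smad4. The Id genes are direct BMP targets whose proteins bind E proteins and keep them from DNA, and Smad6 and Smad7 are induced by the same signals and damp them. In embryonic connective tissue these signals take part in limb patterning and in cartilage and bone formation.

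The deposited values are probe set intensities, whose medians ranged from 146 in a Brg1-/- array to 234 in a WT array, so the arrays had no common level. Values are therefore given as deposited, and changes as log2 differences on a quantile-normalized scale, which gives every array the same distribution of values, and beside it on the deposited log2 scale. Over all 8398 genes the median log2 change on the deposited scale was -0.27 in Snf5-/- and -0.47 in Brg1-/- cells against WT, and 0.02 in each on the quantile-normalized scale. A gene is written as having risen or fallen only where it passed an adjusted p of 0.05 (limma) in the same direction on both scales. Smarcb1, the Snf5 gene, read 297 ± 29.8 (SD, n = 3) in Snf5-/- against 951 ± 147 (n = 3) in WT and 899 ± 103 (n = 4) in Brg1-/- arrays. A second, dimmer Smarcb1 probe set read 56.7 ± 32.9 in Snf5-/-, 138 ± 93.3 in WT and 120 ± 24.4 in Brg1-/- arrays, and its Snf5-/- arrays overlapped WT. Smarca4, the Brg1 gene, read 450.4 ± 105 (n = 4) in Brg1-/- against 2849 ± 853 and 2807 ± 370 in WT and Snf5-/- arrays. In their brightest probe sets the targeted genes therefore followed the labels. All 10 listed fibroblast markers were above the array background in all 10 arrays. In no array was more than 1 of 10 macrophage and leukocyte markers at or below background, so passing this level does not set fibroblasts apart. The fibroblast markers summed to 99311.5 to 108228 in WT, 108698 to 122769 in Snf5-/- and 79890 to 97240 in Brg1-/- arrays. They did not move together: the mean of Col3a1 was 5391.5, 15374 and 7996 in these groups, and that of Pdgfrb 1441, 1151 and 565. In bulk samples such as these, fewer cells of a type and less RNA per cell cannot be told apart.

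The promoters of 3 members are shown: Grem1, which had the largest log2 change against WT among the tested members in both mutants and on both scales, Inhba, which fell in Brg1-/- cells, and Id3, whose call depended on the scale. Each sequence is the 250 bases before the RefSeq start on GRCm38.p6, read 5′ to 3′ on the gene's own strand, in lower case. Capitals mark GGCGCC, the GC-rich element bound by BMP Smads, GTCTG or its reverse complement CAGAC, the Smad box bound by Smads in general, and TGACGTCA, the cAMP response element. The Grem1 window is chr2:113758649-113758898 on the minus strand, the Inhba window chr13:16011601-16011850 on the plus strand, and the Id3 window chr4:136143572-136143821 on the plus strand. The RefSeq start used for Inhba lies inside the annotated gene, which begins at 16004256.
Grem1: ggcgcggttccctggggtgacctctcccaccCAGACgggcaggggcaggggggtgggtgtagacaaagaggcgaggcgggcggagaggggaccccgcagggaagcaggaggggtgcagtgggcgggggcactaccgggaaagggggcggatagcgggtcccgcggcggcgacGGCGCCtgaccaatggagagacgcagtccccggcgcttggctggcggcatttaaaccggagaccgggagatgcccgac
Inhba: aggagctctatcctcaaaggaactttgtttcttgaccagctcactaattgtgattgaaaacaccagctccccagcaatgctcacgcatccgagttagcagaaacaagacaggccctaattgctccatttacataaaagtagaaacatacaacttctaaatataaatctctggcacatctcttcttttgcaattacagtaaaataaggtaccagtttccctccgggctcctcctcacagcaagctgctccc
Id3: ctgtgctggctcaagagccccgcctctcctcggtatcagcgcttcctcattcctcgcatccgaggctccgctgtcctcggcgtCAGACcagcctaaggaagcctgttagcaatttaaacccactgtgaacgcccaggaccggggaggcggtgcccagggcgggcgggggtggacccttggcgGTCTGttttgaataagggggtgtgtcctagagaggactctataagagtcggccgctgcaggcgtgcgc

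Both strands were searched for these elements and for the E-box CANNTG, and a match is a description and not a binding site. GGCGCC occurred once in the Grem1 window and in 9.586% of all 32851 promoter windows in the table. The Smad box occurred once in the Grem1 window and at 2 places in the Id3 window, against 42.194% of all windows with at least 1. None of these elements was in the Inhba window. Of the other matched members, Id2 had 1 GGCGCC and 1 E-box, Bmp4 had 3 E-boxes, and Smad6 had none of the 4 elements. The share of all windows with an E-box was 66.217% and with TGACGTCA 1.546%. The GC content was 72.0% for Grem1, 62.8% for Id3 and 43.2% for Inhba, around a median of 52.4% over all windows. Of the 10 members, 6 matched the promoter table.

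Among the members, Grem1 and Id1 fell in Snf5-/- cells, and Grem1, Inhba and Smad7 fell in Brg1-/- cells. The falls of Grem1 and Id1 held on both scales with each of the 10 arrays left out in turn. Those of Inhba and Smad7 were less firm, and on the quantile-normalized scale each passed in only 4 of the 10 fits. In Snf5-/- cells 2 of the 9 tested members fell and 0 rose on both scales, where over all genes 7.45% fell and 3.16% rose by the same rule. In Brg1-/- cells 3 of 9 fell and 0 rose, where over all genes 12.9% fell and 3.43% rose. On the quantile-normalized scale alone limma called 3 members in Snf5-/- and 4 in Brg1-/- cells, against 18.1% and 27.7% of all genes, and on the deposited scale alone 4 and 5, against 19.3% and 47.5%. The median log2 change of the 9 members was -0.31 in Snf5-/- and -0.36 in Brg1-/- cells on the quantile-normalized scale, and -0.64 and -0.92 on the deposited scale. On the deposited scale the arrays did not overlap WT for 4 of 9 members in Snf5-/- and 5 of 9 in Brg1-/- cells, against 34.7% and 53.1% of all genes. On the quantile-normalized scale they did not overlap for 4 of 9 and 7 of 9 members, against 35.7% and 39.4% of all genes. Without Snf5-/- replicate 2, Id3 passed as higher on both scales in Snf5-/- cells, and Id1 and Fst passed as lower on both scales in Brg1-/- cells. That array is outside the Brg1-/- comparison but shares its estimate of spread. The share of all genes called without it is not given here, so these gains are not read as a result about the members. The comparisons with WT share the 3 WT arrays, so their values are given side by side and no overlap is read from them.

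**Figure D1:**
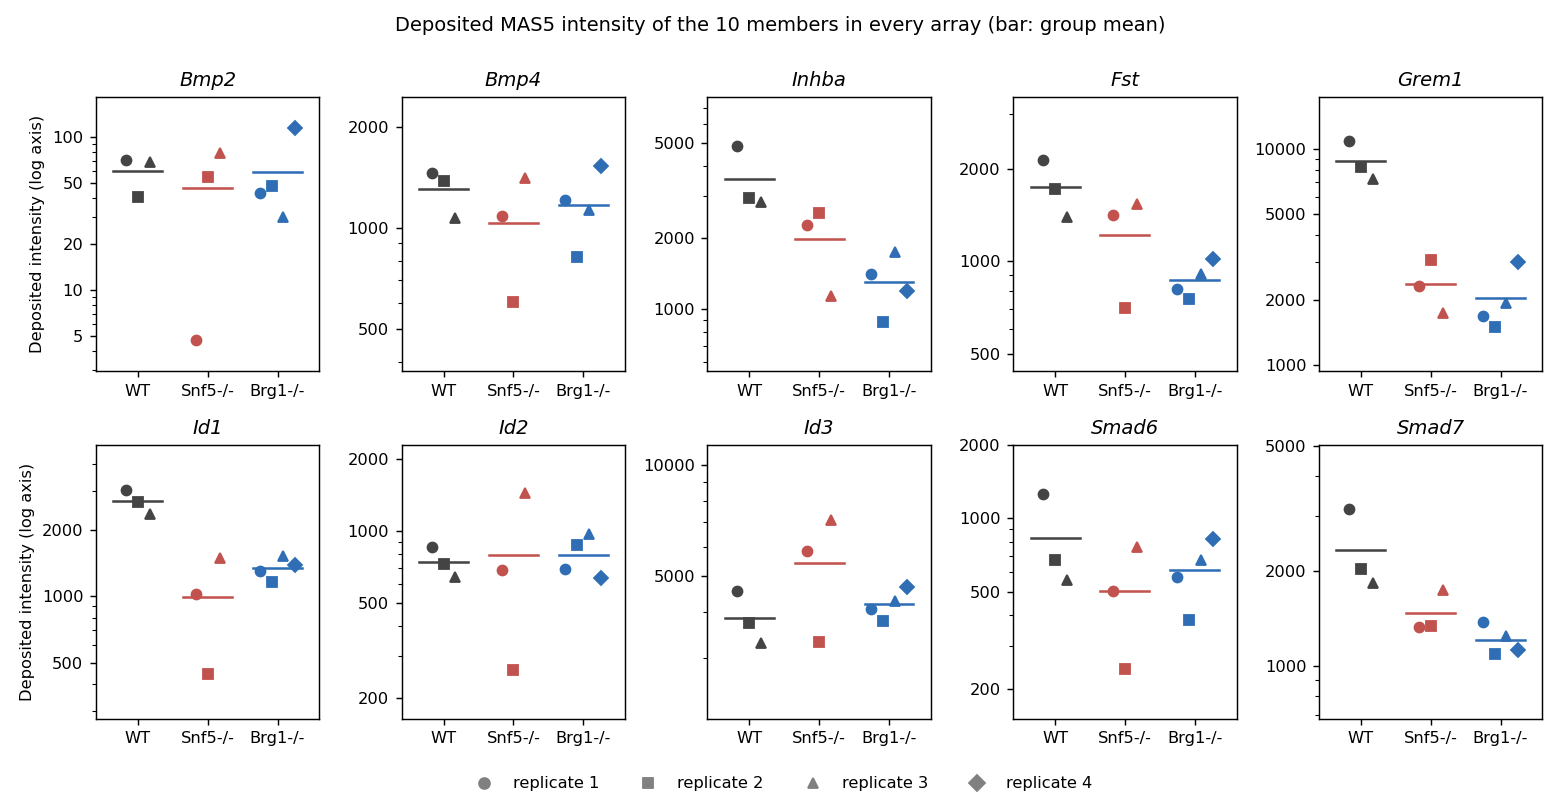
Deposited intensity (log axis) of the 10 members in each array, with a bar at the group mean. Points are single arrays of WT, Snf5-/- and Brg1-/- fibroblasts; the Grem1 points of WT lie between 7232.5 and 10817, above all mutant arrays.

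Grem1 encodes Gremlin 1, a secreted antagonist that binds BMPs and keeps them from their receptors. Its deposited intensity was 10817, 8222 and 7232.5 in WT, 2318, 3042 and 1738 in Snf5-/-, and 1683, 1495, 1933 and 2995 in Brg1-/- cells. Every WT array was above every mutant array, and the ranges of the mutants overlapped. Grem1 fell in both mutants, with a log2 change of -1.55 in Snf5-/- cells (SE 0.26, limma adjusted p = 0.00182) and -1.52 in Brg1-/- cells (SE 0.24, limma adjusted p = 0.000794). On the deposited scale the changes were -1.90 and -2.14, with limma adjusted p of 2.46e-05 and 1.33e-06. These calls held with each array left out in turn on both scales.

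Bmp4 and Bmp2 encode BMP ligands that bind to the same class of BMP receptors. Bmp4 read 1457, 1380.3 and 1071 in WT, 1087, 600.3 and 1406 in Snf5-/-, and 1206, 820, 1130 and 1529.5 in Brg1-/- arrays. The 3 groups overlapped. The log2 change was -0.10 in Snf5-/- cells (limma adjusted p = 0.827) and 0.37 in Brg1-/- cells (limma adjusted p = 0.254), and the Brg1-/- value turned to -0.18 on the deposited scale. Bmp2 was dim, at 70.7, 40.6 and 69.1 in WT, 4.7, 55 and 79.5 in Snf5-/-, and 43.5, 48.4, 29.9 and 115 in Brg1-/- arrays. Its value was at or below background in 1 Snf5-/- and 2 Brg1-/- arrays, where background is the highest of 27 bacterial control probe sets on the array, and it was not tested. In a fit of all probe sets without the filter, its log2 change was -0.88 ± 0.88 (SE) in Snf5-/- cells (limma adjusted p = 0.611), and 0.25 ± 0.82 in Brg1-/- cells (limma adjusted p = 0.885).

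Inhba encodes the subunit whose dimer is activin A, and Fst encodes follistatin, which binds activin and blocks it. Inhba read 4859.5, 2944 and 2813 in WT, 2249.6, 2529.5 and 1134 in Snf5-/-, and 1411, 881, 1739.9 and 1199 in Brg1-/- arrays. In these deposited values all mutant arrays were below all WT arrays, and the mutants overlapped. On the quantile-normalized scale the Brg1-/- arrays were still below WT, but the Snf5-/- arrays overlapped WT. Inhba fell in Brg1-/- cells, with a log2 change of -0.84 (SE 0.29, limma adjusted p = 0.0453) and -1.43 on the deposited scale (limma adjusted p = 0.00039). The Brg1-/- call on the quantile-normalized scale was lost without each of the 3 WT arrays and without Brg1-/- replicates 1, 2 and 4 (limma adjusted p 0.0560 to 0.143), and held without each array on the deposited scale. In Snf5-/- cells the log2 change was -0.53 (limma adjusted p = 0.266), and -0.88 on the deposited scale (limma adjusted p = 0.0388). That deposited value was lost without WT replicate 1 (limma adjusted p = 0.213) and without Snf5-/- replicate 3 (0.154).

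Fst read 2133.5, 1711 and 1392.5 in WT, 1408, 702 and 1532.5 in Snf5-/-, and 809, 754, 906 and 1013 in Brg1-/- arrays. The Brg1-/- arrays were all below the WT arrays, while 2 Snf5-/- arrays lay within the range of the WT arrays. In Brg1-/- cells the log2 change was -0.44 ± 0.19 (SE, limma adjusted p = 0.10), and -0.99 on the deposited scale (limma adjusted p = 0.00267), so it passed on the deposited scale only. Without Snf5-/- replicate 2, an array outside that comparison that shares its estimate of spread, it passed on the quantile-normalized scale too (limma adjusted p = 0.00745). In Snf5-/- cells the log2 change was -0.26 (limma adjusted p = 0.407) and -0.58 on the deposited scale (0.111), with 0.0378 on that scale without Snf5-/- replicate 3.

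**Figure D2:**
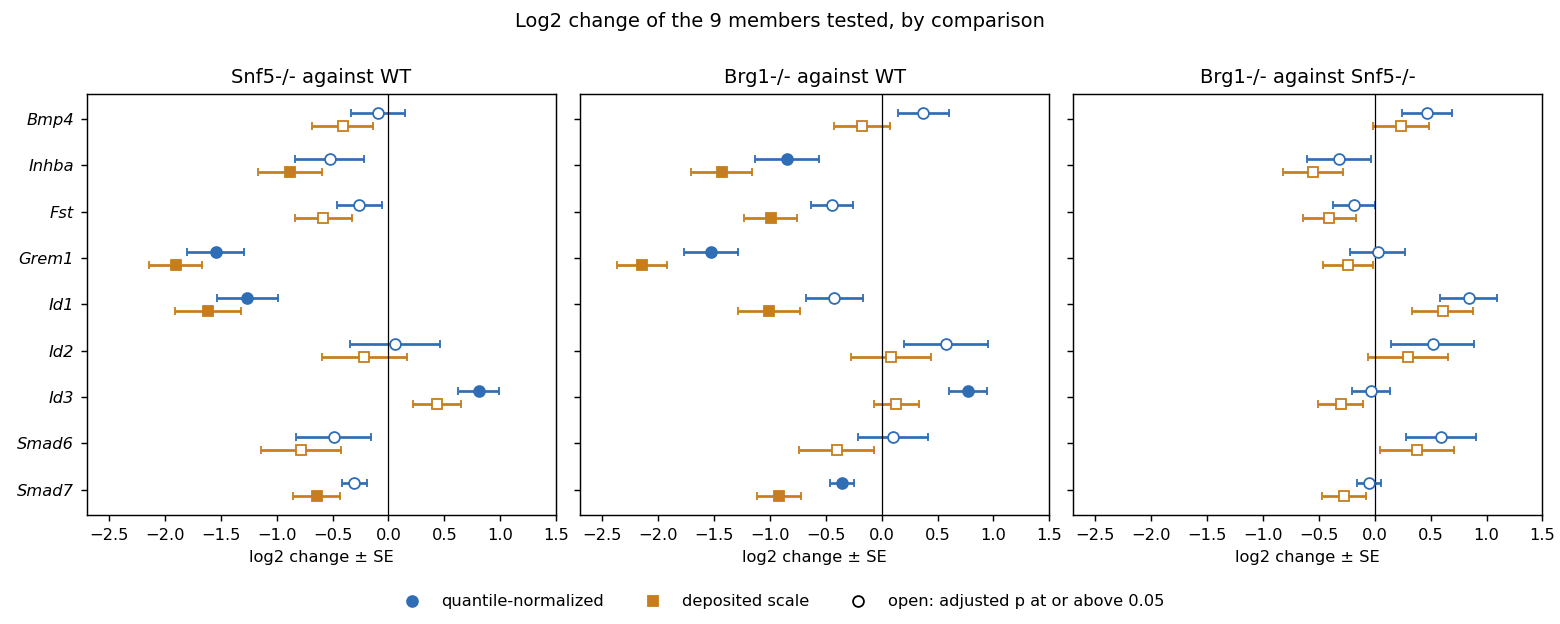
Log2 change of the 9 tested members in each of the 3 comparisons, with SE bars, on the quantile-normalized (circles) and the deposited (squares) scale; open symbols did not pass an adjusted p of 0.05. Grem1 lay lowest in both mutants against WT, and Id3 passed on the quantile-normalized scale only.

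Id1, Id2 and Id3 encode inhibitors of DNA binding, helix-loop-helix proteins without a DNA-binding part. Id1 read 3057, 2677 and 2375 in WT, 1021, 445 and 1501 in Snf5-/-, and 1310.3, 1157, 1528 and 1390.5 in Brg1-/- arrays. All mutant arrays were below all WT arrays. Id1 fell in Snf5-/- cells, with a log2 change of -1.26 (SE 0.27, limma adjusted p = 0.00771) and -1.61 on the deposited scale (limma adjusted p = 0.00101), and this held with each array left out on both scales, although the quantile-normalized change was -0.84 without Snf5-/- replicate 2. In Brg1-/- cells the log2 change of Id1 was -0.42 ± 0.25 (SE, limma adjusted p = 0.242) and -1.01 on the deposited scale (limma adjusted p = 0.0066). That deposited value was lost without WT replicate 1 (limma adjusted p = 0.0516), and the quantile-normalized value passed without Snf5-/- replicate 2 (limma adjusted p = 0.0126).

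Id3 read 4546, 3719.7 and 3275 in WT, 5842, 3314 and 7099.8 in Snf5-/-, and 4054, 3769, 4279.8 and 4664 in Brg1-/- arrays. On the deposited scale the mutant arrays overlapped WT in both comparisons. Id3 was higher on the quantile-normalized scale, by 0.81 ± 0.18 (SE) on the log2 scale in Snf5-/- cells (limma adjusted p = 0.00936) and by 0.77 ± 0.17 in Brg1-/- cells (limma adjusted p = 0.00532). On the deposited scale the changes were 0.44 (limma adjusted p = 0.155) and 0.13 (limma adjusted p = 0.594), so with all arrays Id3 is not called as risen in either mutant. Without Snf5-/- replicate 2, the lowest Snf5-/- array, the Snf5-/- change was 1.07 on the quantile-normalized scale (limma adjusted p = 9.24e-05) and 0.76 on the deposited scale (limma adjusted p = 0.00673), and passed on both.

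Id2 had 3 probe sets. The brightest read 858, 730.3 and 644 in WT, 686, 261 and 1439 in Snf5-/-, and 695, 871, 975.5 and 635 in Brg1-/- arrays. The Snf5-/- arrays spanned more than the WT range at both ends. Its log2 change was 0.06 ± 0.40 (SE) in Snf5-/- cells (limma adjusted p = 0.938) and 0.58 ± 0.37 in Brg1-/- cells (limma adjusted p = 0.284), and the Snf5-/- value turned to -0.22 on the deposited scale. Without Snf5-/- replicate 2, the Brg1-/- value passed on the quantile-normalized scale (limma adjusted p = 0.0453). In the fit of all probe sets the other probe sets gave -0.18 and 0.18 in Snf5-/- cells and 0.24 and 0.19 in Brg1-/- cells, with limma adjusted p of 0.662 to 0.797. The Id genes therefore did not share a direction in Snf5-/- cells on the quantile-normalized scale, where Id1 fell and Id3 was higher.

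The unequal change of Id1 and Id3 can also be seen within an array, where a difference in overall brightness cancels. The log2 ratio of Id1 to Id3 ranged from -0.57 to -0.46 in WT arrays, from -2.90 to -2.24 in Snf5-/- arrays, and from -1.75 to -1.49 in Brg1-/- arrays. The 3 groups did not overlap. The mean was -0.50 ± 0.06 (SD, n = 3) in WT, -2.55 ± 0.33 (n = 3) in Snf5-/- and -1.64 ± 0.11 (n = 4) in Brg1-/- arrays. This ratio was chosen after the values were seen and carries no test. The log2 ratio of Grem1 to Bmp4, an antagonist and one of its ligands, was 2.74 ± 0.16 in WT and 0.77 ± 0.21 in Brg1-/- arrays. It spread from 0.31 to 2.34 in Snf5-/- arrays, and all mutant arrays were below the lowest WT value, 2.57. The log2 ratio of Fst to Inhba was -0.99 ± 0.20 in WT, -0.70 ± 1.14 in Snf5-/- and -0.55 ± 0.37 in Brg1-/- arrays, so the Snf5-/- spread covered both other groups. That of Smad7 to Smad6 was 1.54 ± 0.20, 1.69 ± 0.69 and 1.03 ± 0.46 in these groups, which overlapped. None of these ratios carries a test.

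**Figure D3:**
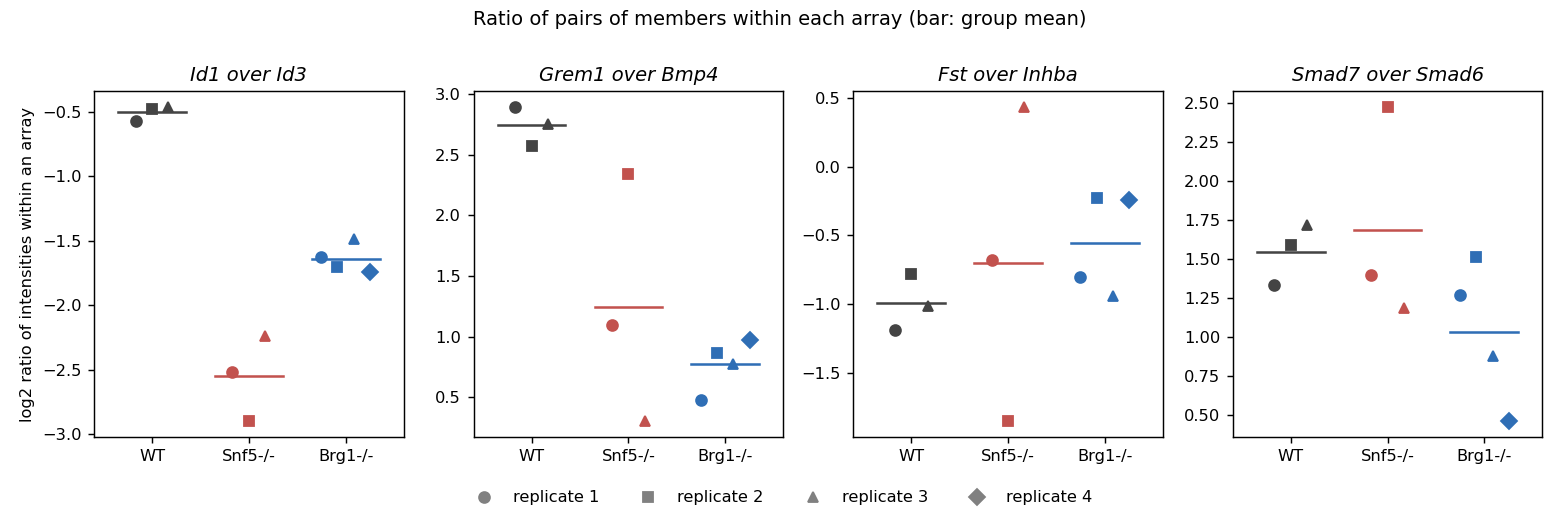
Log2 ratio of pairs of members within each array, by group, with the mean as a bar. The Id1 to Id3 ratio separated the 3 groups, with all Snf5-/- arrays at or below -2.24 and all WT arrays at or above -0.57.

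Smad7 and Smad6 encode inhibitory Smads, of which Smad6 acts mainly on BMP receptors and Smad7 on both BMP and activin or TGF-beta receptors. Smad7 read 3151, 2034 and 1836 in WT, 1328, 1340 and 1740.1 in Snf5-/-, and 1377, 1089, 1243 and 1127 in Brg1-/- arrays. All mutant arrays were below all WT arrays. Smad7 fell in Brg1-/- cells, with a log2 change of -0.36 (SE 0.11, limma adjusted p = 0.0255) and -0.92 on the deposited scale (limma adjusted p = 0.00112). On the quantile-normalized scale it was lost without each of the 3 WT arrays and without Brg1-/- replicates 2, 3 and 4 (limma adjusted p 0.0504 to 0.108). In Snf5-/- cells its log2 change was -0.31 (limma adjusted p = 0.0823), and -0.64 on the deposited scale (limma adjusted p = 0.0388). That deposited value was lost without WT replicates 1 and 2, Snf5-/- replicates 1 and 2 and Brg1-/- replicates 2 and 3 (limma adjusted p 0.0517 to 0.132). Smad6 read 1253, 677 and 559 in WT, 504, 241 and 764 in Snf5-/-, and 572, 381, 677 and 818.5 in Brg1-/- arrays, with overlap with WT in both mutants. Its log2 change was -0.49 (limma adjusted p = 0.344) in Snf5-/- and 0.10 (limma adjusted p = 0.841) in Brg1-/- cells, which turned to -0.40 on the deposited scale.

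The 2 mutants were then compared with each other. Among the 9 members limma called 0 on either scale, where over all genes 4.44% passed on the quantile-normalized scale, 4.3% on the deposited scale and 2.45% on both. At an unadjusted p under 0.05, 1 member passed on each scale, Id1. By the same rule 1836 of all 8398 genes passed on the quantile-normalized and 1798 on the deposited scale. Id1 was 0.84 higher in Brg1-/- than Snf5-/- cells on the log2 scale (95% interval 0.29 to 1.39, limma adjusted p = 0.0850), and it was the 1 member of 9 whose quantile-normalized arrays did not overlap between the mutants, against 16.9% of all genes. On the deposited scale the Id1 difference was 0.61 (limma adjusted p = 0.213), and 0 of 9 members were without overlap, against 22.4% of all genes. For Grem1 the difference was 0.02 (95% interval -0.50 to 0.55, limma adjusted p = 0.967). Such intervals leave room for differences in either direction, and a p above the threshold does not show that the mutants act alike. Without Snf5-/- replicate 3, Id1 (limma adjusted p = 0.0214) and Inhba (limma adjusted p = 0.0489) passed on the quantile-normalized scale, and also on the deposited scale (0.0371 and 0.0496). Without Snf5-/- replicate 2, Fst (limma adjusted p = 0.0476) and Id3 (0.0456) passed on the deposited scale.

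The Snf5-/- arrays were spread widely for several members. Replicate 2 was the lowest of its group for 6 of the 9 tested members on both scales, and replicate 3 the highest for 6 on the quantile-normalized scale. Brg1-/- replicate 2 was the lowest of its group for 7 of 9 members on the quantile-normalized and 8 on the deposited scale. In WT, replicate 3 was the lowest for all 9 on the deposited scale. On the quantile-normalized scale no single WT array stood out, with replicates 1 and 3 the lowest for 4 members each. Snf5-/- replicate 2 also had the highest summed intensity of 10 macrophage and leukocyte markers, 9470 against 2632 and 3371 in the other Snf5-/- arrays and 3599 to 6222 in WT arrays. Skeletal muscle markers summed to 5474 to 9522 in WT, 670 to 1656 in Snf5-/- and 407 to 662 in Brg1-/- arrays, over 5 of 5 genes. Most of that sum was Acta1, skeletal muscle actin, at a mean of 6352 in WT, 784 in Snf5-/- and 302 in Brg1-/- arrays, while Mylpf was at or below background in all 10 arrays and Myog in 1 of 3, 2 of 3 and 3 of 4. Mesothelial markers summed to 1065 to 1581 in WT, 434 to 781 in Snf5-/- and 421 to 591 in Brg1-/- arrays, over 4 of 4 genes. Epithelial markers summed to 723 to 1124, 406 to 830 and 305 to 399, with Epcam at or below background in all 10 arrays. Endothelial markers summed to 540 to 661, 388 to 485 and 347 to 471, with Tie1 at or below background in all 10. The endothelial markers did not move together. The mean of Kdr was 416 in WT, 234.5 in Snf5-/- and 183 in Brg1-/- arrays, while that of Tek was 45.4, 104 and 129. Cartilage and bone markers summed to 829 to 992, 1013 to 1379 and 679 to 1143, over 6 of 7 genes. In that list Col2a1 had a mean of 329 in WT, 766 in Snf5-/- and 379.9 in Brg1-/- arrays, while Sp7 (237, 152 and 160.4) and Sox9 (138, 90.5 and 128) were lower in Snf5-/- than in WT arrays. Their part in the results was not tested.

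Around the members, 58 further genes of the pathway were listed by role, of which 48 were on the array and 33 were tested. In Snf5-/- cells 3 of the 33 rose and 2 fell on both scales, where over all genes 3.16% rose and 7.45% fell. In Brg1-/- cells 2 rose and 6 fell, where over all genes 3.43% rose and 12.9% fell. The genes that rose were Bmp6 and Sostdc1 in both mutants, and Fstl1 in Snf5-/- cells. As described below, Bmp6 and Sostdc1 were tested only because mutant arrays passed the filter on dim probe sets. The counts of rises are therefore not read as a result about the pathway. Bmp6, a BMP ligand, rose, with a log2 change of 1.74 in Snf5-/- cells (SE 0.30, limma adjusted p = 0.00240) and 1.60 in Brg1-/- cells (SE 0.28, limma adjusted p = 0.00161). Its intensity was low, at 79 ± 33.6 in WT (SD, n = 3), 208 ± 24.7 in Snf5-/- and 172 ± 36.8 in Brg1-/- arrays, with 1 WT array at or below background. No WT array of Bmp6 reached the level of the filter on dim probe sets (highest value 112.6, levels 113.6 to 132.3). Bmp6 was therefore tested only because its mutant arrays passed that filter. Bmp1, a protease that cleaves the BMP antagonist chordin, fell in Brg1-/- cells (log2 change -0.78, SE 0.13, limma adjusted p = 0.00136). Inhbb, the subunit of activin B, fell in Brg1-/- cells (log2 change -1.57, SE 0.20, limma adjusted p = 0.000181) and was below Snf5-/- in the direct comparison (-1.78, SE 0.20, limma adjusted p = 0.00136).

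Among the 7 receptors and co-receptors tested, 1 fell in Snf5-/- and 3 in Brg1-/- cells, where over all genes 7.45% and 12.9% fell. This is 1 role of several, and the counts are not read as a result about receptors. Acvrl1, a receptor of the TGF-beta family best known in blood vessels, fell in Snf5-/- (log2 change -1.02, limma adjusted p = 0.0315) and in Brg1-/- cells (-1.11, limma adjusted p = 0.00972). Acvrl1 was dim, at 218 ± 65.0 (SD, n = 3) in WT, 86.9 ± 3.84 in Snf5-/- and 76.1 ± 22.6 in Brg1-/- arrays, with 1 Brg1-/- array at or below background. The filter was passed through its WT arrays, since the highest Snf5-/- value, 91.3, was under the lowest Snf5-/- filter level, 98.16. The co-receptor Eng fell in Brg1-/- cells (-0.72, limma adjusted p = 0.00476), as did the receptor Acvr1 (-0.37, limma adjusted p = 0.0345). Of the 7 antagonists and modulators, Sostdc1 rose in Snf5-/- (1.88, limma adjusted p = 0.0318) and in Brg1-/- cells (1.74, limma adjusted p = 0.0240), from an intensity of 56.8 ± 46.1 (SD, n = 3) in WT, where 1 array was at or below background. The highest WT value of Sostdc1, 109.5, was under the lowest WT filter level, 113.6. Like Bmp6, Sostdc1 was tested only because mutant arrays passed the filter. Fstl1, a secreted glycoprotein of the follistatin family, rose in Snf5-/- cells (0.78, limma adjusted p = 0.00117) and was lower in Brg1-/- than in Snf5-/- cells (-0.49, limma adjusted p = 0.0337). The latter value was lost on the quantile-normalized scale without WT replicate 3, each Snf5-/- replicate and Brg1-/- replicates 1, 2 and 3 (limma adjusted p from 0.0540). Msx2, a homeobox gene induced by BMP, fell in Snf5-/- (-1.04, limma adjusted p = 0.0080) and in Brg1-/- cells (-1.34, limma adjusted p = 0.000767). None of the 7 Smads and Smad regulators tested passed on both scales. Some of these calls depended on single arrays or settings. In Snf5-/- cells Acvrl1 was lost without WT replicates 1 and 2 and without each Snf5-/- replicate (limma adjusted p up to 0.113), Sostdc1 without WT replicates 1 and 2 and Snf5-/- replicates 2 and 3 (up to 0.164), and Fstl1, on the deposited scale, without WT replicates 2 and 3, Snf5-/- replicates 1 and 3 and Brg1-/- replicate 3 (up to 0.116). In Brg1-/- cells Sostdc1 was lost without WT replicates 1 and 2 and Brg1-/- replicates 2, 3 and 4 (limma adjusted p up to 0.187), Acvrl1 without WT replicate 1 (0.0528), and Acvr1 without each WT replicate and Brg1-/- replicates 1, 2 and 3 (up to 0.121) and with trimmed-mean scaling (0.0948). The Bmp1, Inhbb, Eng and Msx2 calls against WT held with each array left out on both scales. Those of Bmp6 held too, but the filter was not redone in these fits. They therefore cannot show how far the rise of Bmp6 rests on having been tested through its mutant arrays.

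**Figure D4:**
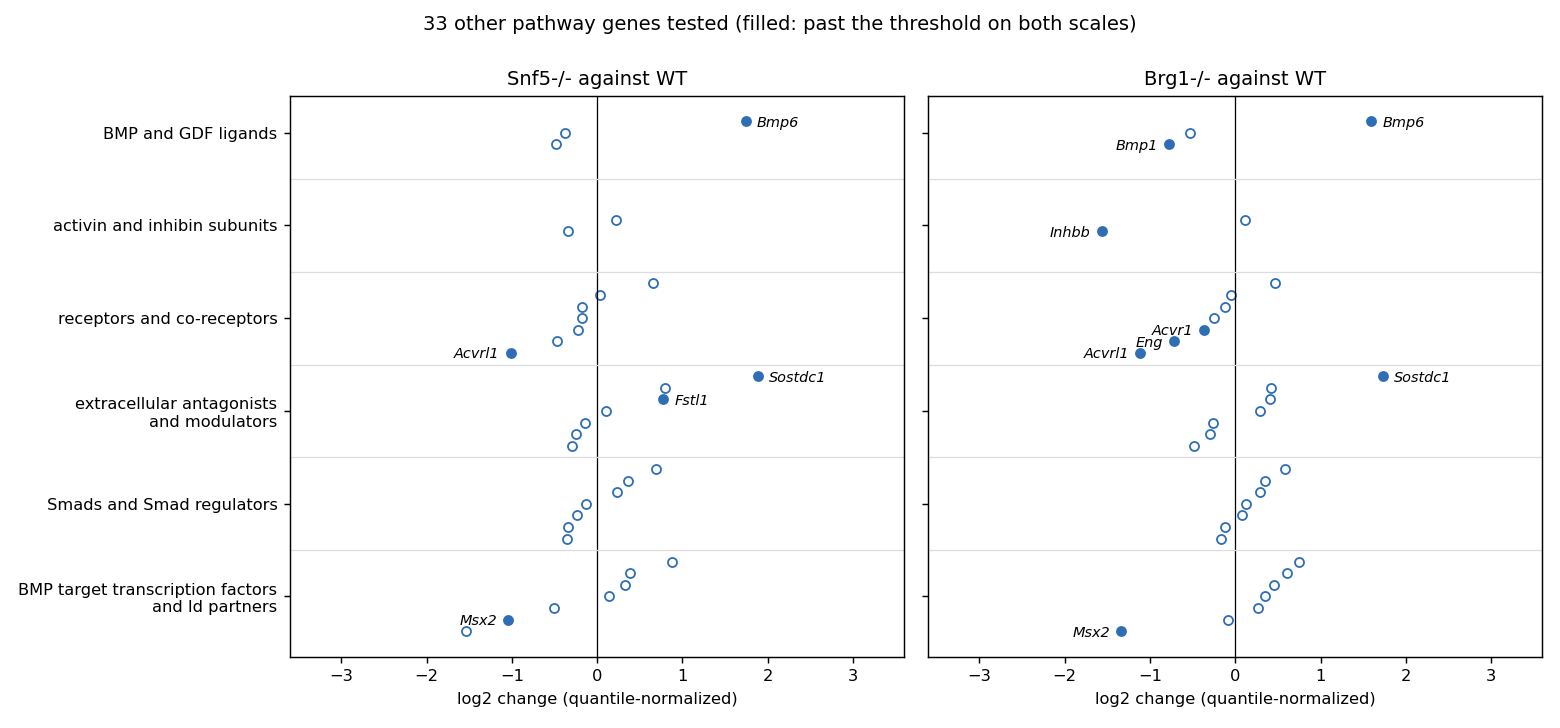
Log2 change (quantile-normalized) of pathway genes outside the members, by role, in each mutant against WT, with named genes labelled. Filled points passed the threshold on both scales. Msx2 fell in both mutants, and Bmp6, tested only because its mutant arrays passed the filter on dim probe sets, rose in both.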

How the data were processed

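The table deposited by the authors holds linear intensity per probe set, made with MAS5 per the submitters' processing notes. The MAS5 version and scaling target are not given in the sources used here. From these deposited intensities, log2 values were taken with no pseudocount and quantile-normalized. Probe sets were named from the supplied array annotation, where 691 probe sets had several symbols and 1606 were not listed; these and 64 control probe sets were left out. The probe set of highest mean log2 value stood for a gene, and genes at or above the 40th percentile of the array in at least 3 arrays were kept.

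The 3 group means were estimated per gene over all 10 arrays in R 4.3.3 by limma 3.58.1 (lmFit, then eBayes with an intensity trend). Tests were two-sided, with Benjamini-Hochberg adjustment over all 8398 genes and a threshold of 0.05. The procedure was tested on simulated data. The members, lists and pathway genes were chosen with earlier results of these data known, and the background level after the data were seen. All members are named, and of the pathway genes up to 3 of smallest adjusted p per role and comparison with WT that passed on both scales. The number of arrays limits the precision. Promoter sequences are from RefSeq. Alternatives were the deposited scale, trimmed-mean scaling, 16 intensity units added, other filters, all probe sets, array weights, no trend, the 2 groups alone, the replicate block and each array left out.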

Additional observations from a re-analysis of the deposited data

Results flagged for a closer look

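Smad7 in Brg1-/- arrays had 1 array apart from the others on the quantile-normalized log2 scale: the gap of the highest array, replicate 1, to the nearest other was 0.842 of the group's range, above Dixon's critical value for 4 arrays. Its deposited intensity was 1377, against 1089, 1243 and 1127. Brg1-/- is the only group of 4 arrays. Of the 12 member probe sets tested in it 1 stood out, and chance flags about 5% of such tests.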

How the results depend on the processing

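In Brg1-/- against WT, limma called 4 members on the quantile-normalized scale, 7 with only the 2 groups compared, and between 2 and 7 with each array left out (4 to 5 on the deposited scale). In Snf5-/- against WT the count was 3, also with each array left out, and between 2 and 5 with each left out on the deposited scale. For Brg1-/- against Snf5-/- the count was 0, and between 0 and 2 with each array left out on each scale. The share of all genes called under these other settings, and with the replicate block below, is not given here. A setting can change the calls of all genes, so these counts are not read as a result about the members. Fstl1 in Brg1-/- cells against WT, 0.29 on the quantile-normalized scale, reversed on the deposited scale to -0.41 with the replicate block, -0.38 without WT replicate 3 and -0.41 without Brg1-/- replicate 4. The Inhba call in Brg1-/- cells had a limma adjusted p of 0.0626 with no filter, 0.0502 with all probe sets and 0.0819 without the intensity trend. With only WT and Brg1-/- arrays, Fst (limma adjusted p = 0.00836), Id1 (0.00612) and Id2 (0.0129) also passed, and with array weights Fst (0.0121) and Id1 (0.0493). Among the other pathway genes, Sostdc1 in Snf5-/- cells was lost with array weights (limma adjusted p = 0.0672) and with the 2 groups alone (0.0816), and Fstl1 between the mutants with no filter (0.0560), no trend (0.0925) and the 2 groups alone (0.0693). The cause was not tested. Other counts of members stayed within 1.5 times of these values. The deposited-scale leave-one-out and block settings were chosen after seeing the data.

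With the replicate number as a block, the count in Brg1-/- against WT was 2, and on the deposited scale with the block Snf5-/- against WT gave 5. With the block the Acvrl1 call in Snf5-/- cells was lost (limma adjusted p = 0.0534). The deviations of same-numbered arrays had correlations from -0.07 to 0.10 over 9 pairs, of which 1 was over 0.1. Those of differently numbered arrays ran from -0.12 to 0.09. Whether arrays of one number shared an embryo, culture or batch was not tested. Depth of signal limits Bmp2 most, at or near background.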
